A study of Mus musculus with 2 samples.

Results

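In macrophages grown from mouse bone marrow, 10 genes of the amino acid stress response and of serine synthesis were followed: Atf4, Ddit3, Phgdh, Psat1, Psph, Shmt2, Asns, Chac1, Trib3 and Gdf15. They were taken by symbol from a gene count table of 22060 Ensembl genes, and all 10 were found in it. The table compares 1 library from wild-type (WT) cells with 1 library from cells carrying STAT2 T403A, a form of the interferon signalling factor STAT2 with threonine exchanged for alanine. The cells of both libraries came from C57BL/6 mice aged 8 weeks, were cultured with the macrophage growth factor M-CSF for 7 days and received no further treatment (0 h). The sources used here do not give the zygosity of T403A, the sex and number of the mice, or whether cultures were pooled. With 1 library for each genotype there are no replicates and hence no p-values, and what follows is a comparison of 2 libraries rather than of genotypes.

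ATF4 is a transcription factor whose protein is made when the initiation factor eIF2 is phosphorylated by kinases that sense amino acid shortage, misfolded protein in the endoplasmic reticulum, double-stranded RNA or haem shortage. With C/EBP family partners it binds composite elements in genes for amino acid synthesis and uptake, tRNA charging and stress signalling. The serine pathway starts from the glycolytic intermediate 3-phosphoglycerate and runs through PHGDH, PSAT1 and PSPH, and SHMT2 then splits serine into glycine and a one-carbon unit in mitochondria. Because ATF4 output is set largely by translation, the transcript level of Atf4 does not give the amount of its protein.

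The windows around the start sites are shown for the members that carry a C/EBP-ATF response element (CARE, searched as TGATGNAA on both strands) and for the pair with the greatest difference between the libraries, Phgdh and Gdf15. All 10 members matched windows of 300 bases (250 before the start and 50 from it) in RefSeq on GRCm38.p6, the build of the count table, and Psat1 and Gdf15 had a second window each. The start used for Psat1 lies 22278 bases from the start of the gene in GENCODE M21, and the nearest starts of the other members lie within 196 bases of theirs. The element was found in 3 members, Asns, Chac1 and Trib3, and in 3.97% of the 32851 windows of all genes. Capitals mark it, and each sequence reads 5′ to 3′ on the strand of its gene.
Asns (chr6:7693160-7693459, minus strand): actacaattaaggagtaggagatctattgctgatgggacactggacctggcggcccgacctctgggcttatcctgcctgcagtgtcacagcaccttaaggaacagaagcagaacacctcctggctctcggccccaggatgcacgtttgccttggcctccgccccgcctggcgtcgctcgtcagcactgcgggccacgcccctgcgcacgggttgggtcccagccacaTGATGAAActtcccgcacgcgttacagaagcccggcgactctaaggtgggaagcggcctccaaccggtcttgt
Chac1 (chr2:119350992-119351291, plus strand): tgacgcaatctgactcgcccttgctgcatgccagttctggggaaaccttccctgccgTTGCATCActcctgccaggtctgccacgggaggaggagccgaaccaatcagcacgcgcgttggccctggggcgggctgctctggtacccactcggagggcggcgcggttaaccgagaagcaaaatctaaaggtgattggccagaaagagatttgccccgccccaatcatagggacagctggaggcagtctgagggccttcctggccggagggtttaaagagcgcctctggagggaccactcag
Trib3 (chr2:152344011-152344310, minus strand): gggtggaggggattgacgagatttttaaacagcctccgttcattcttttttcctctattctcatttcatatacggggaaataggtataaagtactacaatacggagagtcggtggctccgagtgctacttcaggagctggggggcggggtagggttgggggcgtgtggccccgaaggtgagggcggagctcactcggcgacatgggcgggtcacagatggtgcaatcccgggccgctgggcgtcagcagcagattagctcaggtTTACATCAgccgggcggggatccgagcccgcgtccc
Phgdh (chr3:98339920-98340219, minus strand): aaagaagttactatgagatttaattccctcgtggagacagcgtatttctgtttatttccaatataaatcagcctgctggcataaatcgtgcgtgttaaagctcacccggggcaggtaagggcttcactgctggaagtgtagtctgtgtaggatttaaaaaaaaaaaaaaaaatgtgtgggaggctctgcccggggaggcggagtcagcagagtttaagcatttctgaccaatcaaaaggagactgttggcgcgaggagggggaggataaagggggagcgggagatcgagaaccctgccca
Gdf15 (chr8:70632407-70632706, minus strand): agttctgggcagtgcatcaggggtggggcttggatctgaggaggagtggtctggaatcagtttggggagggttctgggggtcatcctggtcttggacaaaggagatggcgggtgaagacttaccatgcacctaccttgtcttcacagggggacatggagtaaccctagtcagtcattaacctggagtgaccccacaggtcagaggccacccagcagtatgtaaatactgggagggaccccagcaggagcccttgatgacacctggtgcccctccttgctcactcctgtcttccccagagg

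In Asns the word TGATGAAA lay 23 to 16 bases before the start, and the letters there are those of the nutrient-sensing element known from the human gene. In Chac1 the word TGATGCAA was read on the opposite strand, 193 to 186 bases before the start, and the related word TGACGCAA stood at the far end of the window. The latter was searched as TGACGNAA, which is in 1.59% of all windows and in no other member. In Trib3 TGATGTAA was read on the opposite strand, 14 to 21 bases after the start. No window of the members held GAAANNGAA, the core of the element bound by the STAT2-containing interferon complex, which 8.56% of all windows hold. The CCAAT box (CCAAT, both strands) was in a window of 7 members and in 37.4% of all windows. These matches describe letters and do not show binding, and a missing match says only that the letters are not in that window.

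The count total was 16033032 for WT and 18658381 for T403A, and counts were scaled by the trimmed mean of M-values (TMM) and are given as CPM, the count relative to the scaled library total. A gene was treated as measured with a summed count of at least 20, which 11199 genes reached. It was called higher or lower where the scaled counts differed by at least 1.5-fold and the exact 95% counting interval of the ratio excluded 1. Intervals cover counting error only. Csf1r, the M-CSF receptor that marks macrophages, was abundant in both libraries (7146 and 5503 CPM in WT and T403A). Some other macrophage markers differed more than Csf1r and some less. Of 12 such markers 6 were called lower in T403A (1.60-fold to 8.76-fold) and 1 higher (Mrc1, 5.12-fold). The shares over all measured genes were 10.8% lower and 13.5% higher. Of 8 lymphocyte markers 6 had no count in either library, among them Cd3e, and the summed levels of the neutrophil, dendritic, lymphocyte and stromal markers were 0.200 to 19.3 CPM in WT and 0.301 to 16.6 CPM in T403A. The erythroid and megakaryocyte markers summed to 36.9 and 7.57 CPM, mostly from Pf4. The altered gene itself, Stat2, had 376 CPM (WT) and 84.4 CPM (T403A), and a 1-residue substitution need not change a read count, so this does not check the labels.

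**Figure D1:**
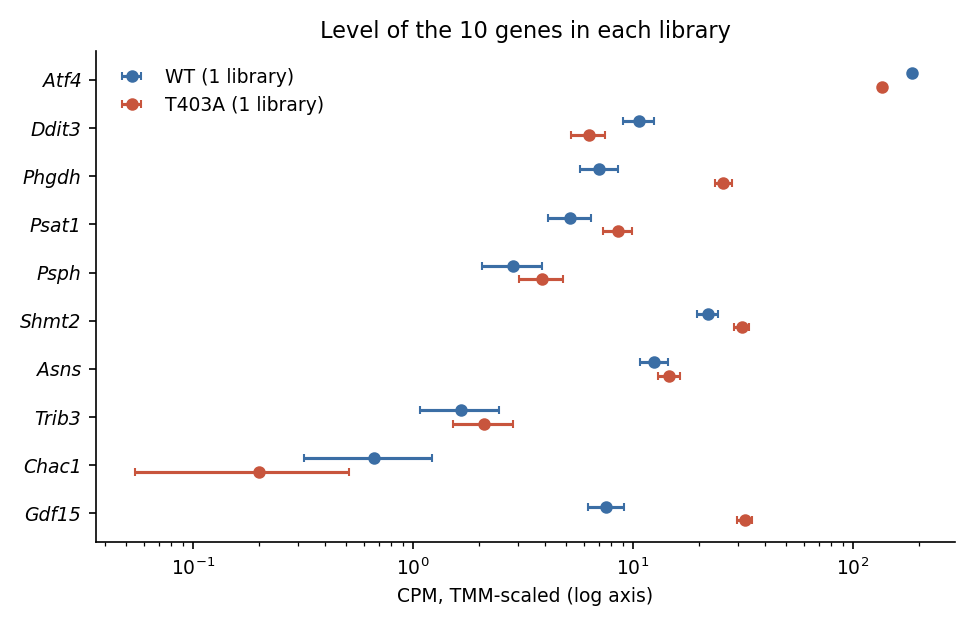
Level of each of the 10 genes in the WT library (blue) and the T403A library (red), in TMM-scaled CPM on a log axis. Points are single libraries and bars are exact 95% Poisson counting intervals. The bars of Phgdh (7.07 and 25.8 CPM), Gdf15 (7.60 and 32.3 CPM), Psat1 and Shmt2 are separated in the T403A direction. Those of Atf4 and Ddit3 are separated in the WT direction.

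Transcripts of the first serine synthesis enzymes were higher in the T403A library, with the largest difference at the first step. Phgdh, the dehydrogenase that commits 3-phosphoglycerate to serine, had 106 counts (7.07 CPM) in WT and 515 counts (25.8 CPM) in T403A. This is a 3.66-fold difference with a counting interval of 2.96 to 4.55. Psat1, the aminotransferase of the middle step, had 78 counts (5.20 CPM) in WT and 171 (8.58 CPM) in T403A. Psat1 was thus 1.65-fold higher (1.25 to 2.18). Psph, the phosphatase that releases serine, had 43 counts (2.87 CPM) in WT and 77 (3.86 CPM) in T403A. Its ratio of 1.35 had an interval of 0.916 to 2.0 and was not called, whereas scaled by library totals it was called at 1.54-fold (1.05 to 2.29). The exons of Psph overlap those of Cct6a on the opposite strand over 10.4% of their length, and the sources used here do not say whether reads were counted by strand.

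Together the 3 enzymes of serine synthesis summed to 15.1 CPM for WT and 38.3 CPM for T403A, a ratio of 2.53 (2.18 to 2.95), and most of the difference was Phgdh. The same counts give the balance between the enzymes, which does not depend on how the libraries were scaled. Per kilobase of deposited length, Phgdh was 2.33 times Psat1 in WT (1.72 to 3.16) and 5.15 times in T403A (4.33 to 6.16). This length is the union of the annotated exons of a gene. The intervals do not cover its difference from the transcript made in these cells. Phgdh was 4.29 times as abundant as Psph per kilobase in WT (2.99 to 6.27) and 11.6 times in T403A (9.15 to 15.0). The intervals of both ratios do not overlap between the libraries. How often pairs of other genes differ in this way was not tested. Psat1 against Psph was 1.85 in WT (1.26 to 2.74) and 2.26 in T403A (1.72 to 3.0), with overlapping intervals.

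Shmt2, the mitochondrial serine hydroxymethyltransferase, had 329 counts (21.9 CPM) in WT and 626 (31.4 CPM) in T403A. It was 1.43-fold higher (1.25 to 1.64), just short of the 1.5-fold threshold that Psat1 passed. Per kilobase, Shmt2 was 2.48 times as abundant as Phgdh in WT (1.99 to 3.12), whereas in T403A the 2 transcripts were nearly level (0.972, interval 0.864 to 1.09). Mitotic genes also differed between these libraries: all 20 of a list were called higher in T403A, and their summed level was 112 CPM in WT and 713 CPM in T403A. Their part in the differences of the serine enzymes was not tested. In this bulk RNA, more cells of a type and more RNA per cell cannot be told apart.

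Of the transcription factors at the head of the response, Ddit3 was called lower in the T403A library and Atf4 was not called. Atf4 was the most abundant member, with 2797 counts (186 CPM) in WT and 2724 (137 CPM) in T403A. It was 1.36-fold lower (1.29 to 1.44) in T403A. Ddit3, which encodes the stress-induced factor CHOP that acts downstream of ATF4, had 160 counts (10.7 CPM) in WT and 126 (6.32 CPM) in T403A. It was 1.69-fold lower (1.33 to 2.15) and was the 1 member called lower. Scaled by library totals it was 1.48-fold lower and was not called. Per kilobase, Atf4 exceeded Ddit3 by 12.7 times in WT (10.8 to 15.0) and by 15.7 times in T403A (13.1 to 18.9), with overlapping intervals.

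Asns, Trib3 and Chac1, whose start site windows hold the TGATGNAA letters shown above, were not called in either direction. Asns, the asparagine synthetase and a classical readout of ATF4, had 188 counts (12.5 CPM) in WT and 292 (14.6 CPM) in T403A. The ratio of 1.17 had an interval of 0.969 to 1.41. Trib3, a pseudokinase that feeds back on ATF4 and CHOP, had 25 counts (1.67 CPM) in WT and 42 (2.11 CPM) in T403A. The ratio of 1.26 had an interval of 0.753 to 2.16. Chac1, an enzyme that breaks down glutathione and a target of ATF4 and CHOP, had 10 counts in WT and 4 in T403A. With 14 counts in all it was below the minimum and was not treated as measured. Its level was 0.667 CPM in WT and 0.201 CPM in T403A, and its 3.32-fold lower value had an interval from 0.958 to 14.5.

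Gdf15 had the largest difference among the members. It encodes a secreted stress cytokine of the TGF-beta superfamily that is a target of both CHOP and p53. Gdf15 had 114 counts (7.60 CPM) in WT and 644 (32.3 CPM) in T403A. The level was 4.25-fold higher in T403A (3.48 to 5.23), opposite in direction to Ddit3. Of 18 measured genes on a p53 target list that does not hold Gdf15, 2 were higher (Bbc3, 1.65-fold, and Polk, 1.70-fold) and 1 was lower (Cdkn1a, 1.87-fold), with a median log2 ratio of 0.10. Over all measured genes 13.5% were higher and 10.8% lower, with a median of 0.01. With library total scaling 6 of the 18 listed genes were higher and 1 lower, with a median of 0.29. Over all 11199 measured genes that scaling called 2290 higher and 890 lower, with a median of 0.20. The abundant p53 targets Mdm2 (207 CPM in WT and 155 CPM in T403A) and Sesn1 (139 and 193 CPM) were not called.

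The order of the members by level per kilobase changed mainly through Phgdh and Gdf15, which stood higher in T403A, and Ddit3, which stood lower. In RPKM, the CPM value divided by the deposited length in kilobases, Atf4 was first in both libraries, at 79.1 in WT and 57.9 in T403A. In WT it was followed by Shmt2 (7.05 RPKM) and Ddit3 (6.23 RPKM), whose counting intervals overlapped, then by Asns (4.58 RPKM), Gdf15 (4.10 RPKM) and Phgdh (2.84 RPKM). In that run Asns overlapped Gdf15 and Gdf15 overlapped Phgdh. In T403A the second place was taken by Gdf15 (17.4 RPKM), followed by Phgdh (10.4 RPKM) and Shmt2 (10.1 RPKM), which overlapped, and then by Asns (5.35 RPKM) and Ddit3 (3.69 RPKM). Psat1, Trib3, Psph and Chac1 were the 4 lowest in this order in both libraries, at 1.22 to 0.407 RPKM in WT and 2.02 to 0.123 RPKM in T403A.

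Of the 9 measured members, 3 were called higher (Phgdh, Psat1 and Gdf15), 1 was called lower (Ddit3) and 5 were not called. Over all measured genes 13.5% were called higher and 10.8% lower. Counts given for each list are to be read beside these shares. Among the 4244 genes with a summed count of 100 to 1000, the range that holds 7 of the members and the same 4 calls, 19.3% were called higher and 8.81% lower. The median log2 ratio was 0.42 over the measured members and 0.01 over all measured genes. Gdf15 (log2 ratio 2.08) and Phgdh (1.86) lay above the 95th percentile of all measured genes, which was 1.29, and Psat1 (0.72) lay at percentile 88.1. Ddit3 (-0.75) and Atf4 (-0.45) lay at percentiles 8.87 and 15.2. These places in the distribution describe 2 libraries that differ in many genes and are no test.

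**Figure D2:**
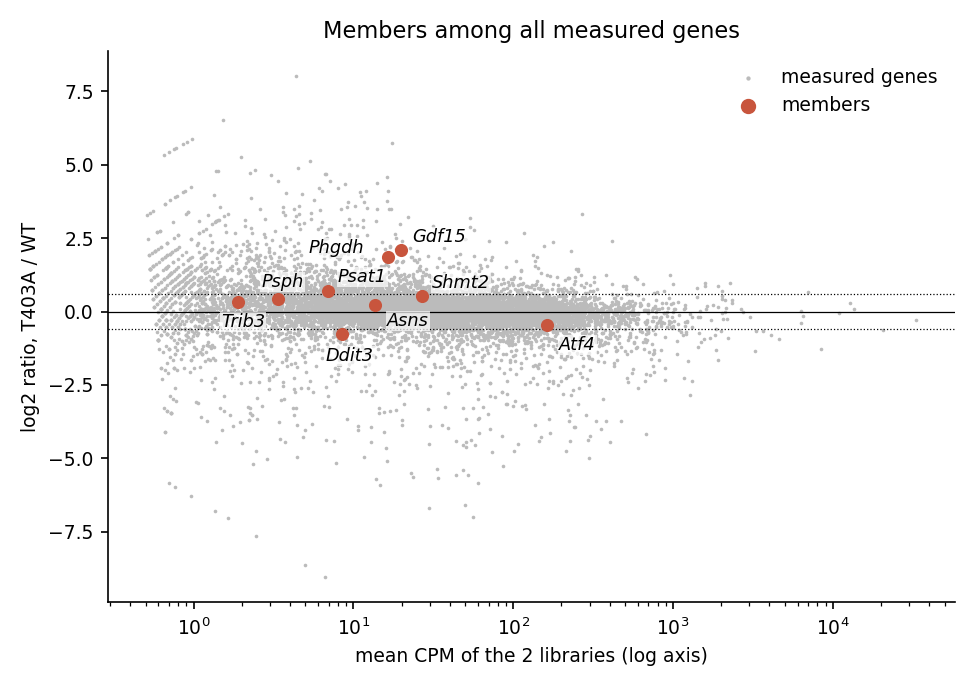
Log2 ratio of T403A to WT against the mean level of the 2 libraries (CPM, log axis) for the 11199 measured genes (grey), with the 9 measured members in red. Dotted lines mark 1.5-fold. Phgdh and Gdf15 stand above most genes of like level, Ddit3 lies just under the lower line and the other members lie near or between the lines.

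The calls close to 1.5-fold depended on the scaling. Scaling by library totals moved the median log2 ratio of all measured genes from 0.01 to 0.20, and the split of all genes from 1515 higher and 1214 lower to 2290 higher and 890 lower. With it, 5 members were called higher, since Psph (1.54-fold) and Shmt2 (1.64-fold) joined Phgdh (4.17-fold), Psat1 (1.88-fold) and Gdf15 (4.85-fold), and none was called lower. With upper quartile scaling Shmt2 was called at 1.5-fold as the only addition. Under all 4 scalings Phgdh was between 3.64-fold and 4.17-fold higher, Gdf15 between 4.23-fold and 4.85-fold higher, and the ratios of Atf4, Ddit3 and Chac1 were below 1.

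**Figure D3:**
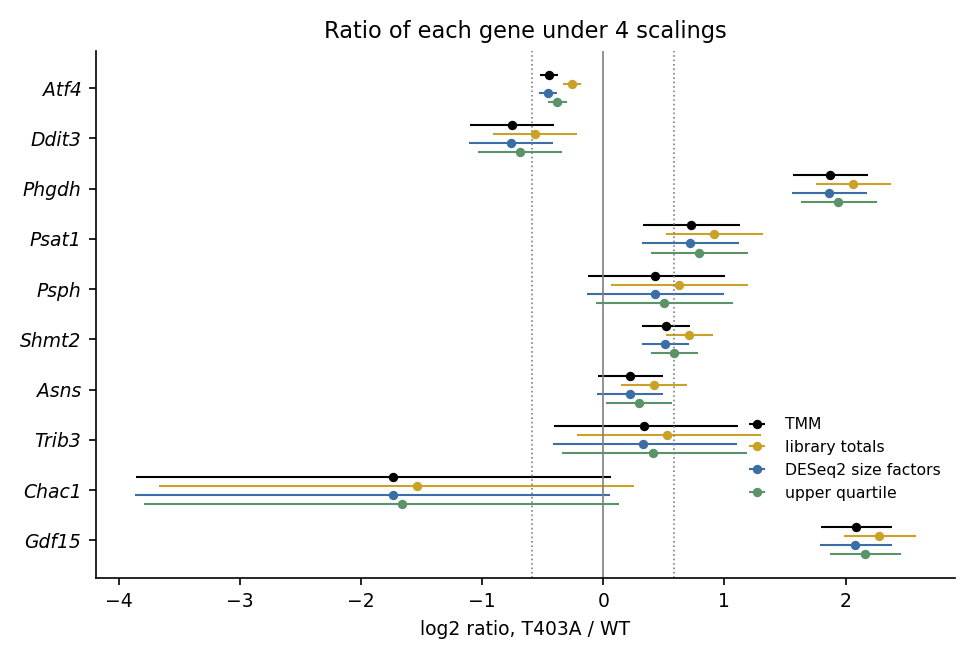
Log2 ratio of T403A to WT for each of the 10 genes under 4 scalings (colours), with exact 95% counting intervals as bars. Dotted lines mark 1.5-fold. The intervals of Phgdh, Psat1, Shmt2 and Gdf15 lie above 0 and those of Atf4 and Ddit3 below 0 under each scaling, and those of Trib3 and Chac1 include 0.

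All 10 members are protein-coding genes in GENCODE M21, and Ddit3 and Shmt2 lie on chromosome 10 near the altered gene. Ddit3 (127290774 to 127296288, plus strand, GRCm38) starts 0.980 Mb and Shmt2 (127517123 to 127522444, minus strand) 0.748 Mb from the start of Stat2 (128270559 to 128292849). Of the 19 measured genes from Ddit3 to Stat2, with both included, 2 were called higher and 5 lower, with a median log2 ratio of 0.06. The 5 lower genes include Ddit3 and Stat2 themselves, which set the ends of the stretch. The shares over all measured genes were 13.5% higher and 10.8% lower. Whether linkage to the altered allele has a part in the values of Ddit3 or Shmt2 was not tested. Exons of Ddit3 overlap those of Mars, the methionyl-tRNA synthetase gene, on the opposite strand over 3.97% of their length. Chac1 and Trib3 share chromosome 2, and the others lie on separate chromosomes, Atf4 on chromosome 15 (80255184 to 80257541, plus strand), Psat1 on 19 (15904678 to 15947337, minus strand) and Psph on 5 (129765558 to 129787449, minus strand). Phgdh, Asns and Gdf15 lie where their windows above are given.

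The eIF2 kinases, which stand upstream of ATF4, were not called except for 1. Eif2ak2 encodes PKR, the kinase that senses double-stranded RNA and is itself induced by interferon. Its level was 223 CPM for WT and 64.6 CPM for T403A, 3.46-fold lower (3.24 to 3.69). All 20 genes of an interferon-stimulated list, which does not hold Eif2ak2, were called lower as well, and their summed level was 6806 CPM in WT and 509 CPM in T403A. Eif2ak4 (GCN2, the sensor of uncharged tRNA, 35.2 and 43.8 CPM), Eif2ak3 (PERK, 37.1 and 41.9 CPM) and Eif2ak1 (the haem-regulated kinase, 83.3 and 73.2 CPM) were not called. Ppp1r15a, the stress-induced GADD34 subunit that reverses eIF2 phosphorylation, had 31.1 CPM (WT) and 46.5 CPM (T403A) and was 1.49-fold higher (1.34 to 1.67) and just short of the call. Of the 18 measured genes on the list of eIF2 kinases, eIF2 and eIF2B subunits and phosphatases, Eif2ak2 was the 1 called, and the abundant phosphatase subunit genes Ppp1ca and Ppp1cc were not. The list had a median log2 ratio of -0.10.

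Partners and feedback regulators of ATF4 were more often lower than higher. Of 15 measured genes 6 were lower and 1 was higher, with a median log2 ratio of -0.29. The shares over all measured genes were 10.8% lower and 13.5% higher. Cebpb, a C/EBP partner of ATF4, was 3.30-fold lower (87.6 and 26.6 CPM), Trib1, a relative of Trib3, 3.11-fold lower, and Nupr1, a stress-induced chromatin protein, 2.28-fold lower. Atf3, which cooperates with ATF4 and CHOP, was 1.95-fold lower (239 and 123 CPM), Eif4ebp1, a brake on cap-dependent translation, 1.72-fold lower, and Jdp2 1.61-fold lower. Atf5, a close relative of Atf4 under the same translational control, was the 1 higher gene. It had 225 counts in WT and 598 in T403A, a 2.0-fold higher CPM (interval 1.71 to 2.34). The abundant gene Eif4ebp2 was not called.

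Other genes described as ATF4 targets went both ways. Of 30 measured targets outside the 10 members, 6 were higher and 4 lower, with a median log2 ratio of -0.14. All measured genes also went both ways, with 13.5% higher and 10.8% lower. The higher genes included the mitochondrial enzymes Pck2 (1.82-fold), which makes phosphoenolpyruvate, Aldh18a1 (1.64-fold), which starts proline synthesis, Gpt2 (1.56-fold), an alanine aminotransferase, and Ppm1k (2.14-fold), the phosphatase of branched-chain amino acid breakdown. Ndrg1, which hypoxia also induces, was 3.18-fold higher and the proapoptotic gene Bbc3 1.65-fold higher. The lower genes were Mthfd1l (4.26-fold), Vegfa (2.63-fold), Hmox1 (2.02-fold) and Clic4 (1.64-fold). The abundant autophagy receptor gene Sqstm1 (1050 and 919 CPM) was not called. Fgf21, a hormone gene induced by ATF4 in other tissues, had no count in either library.

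Among 13 measured amino acid carriers 1 was higher and 4 were lower, with a median log2 ratio of -0.05. Slc38a2, the sodium-coupled neutral amino acid carrier SNAT2, was 1.98-fold higher (192 and 380 CPM). Slc7a8 was 7.91-fold lower, and Slc3a2, the heavy chain shared by several carriers, 2.82-fold lower. Its cystine-exchanging partner Slc7a11 was 2.19-fold lower, and Slc7a7 was 1.55-fold lower. Of 20 cytosolic tRNA synthetases, several of which are ATF4 targets, only Sars, which charges tRNA with serine, was called, at 1.56-fold higher (62.2 and 97.2 CPM, interval 1.44 to 1.69). The abundant members Nars and Eprs were not called, and the median log2 ratio of the list was 0.03.

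Downstream of SHMT2, few genes of the one-carbon and glycine pathways were called. Of 24 measured genes 3 were higher and 2 lower, near the shares over all measured genes (13.5% higher and 10.8% lower). Their median log2 ratio was -0.02. With library total scaling 6 were higher and 2 lower, with a median of 0.18. Over all 11199 measured genes that scaling called 2290 higher and 890 lower, with a median of 0.20. The higher genes included the glycine cleavage component Amt (30 and 86 counts, 2.16-fold) and the nucleotide synthesis gene Tyms (28 and 76 counts, 2.04-fold). The lower genes included Mthfd1l (571 and 178 counts, 4.26-fold), which releases formate from mitochondria. Mthfd2, the mitochondrial partner of Shmt2 and a known ATF4 target, was 1.48-fold lower (27.7 and 18.7 CPM) and was not called, nor was Mat2a, which makes the methyl donor S-adenosylmethionine. Shmt1, the cytosolic counterpart of Shmt2, had 5.20 CPM (WT) and 7.52 CPM (T403A) and was not called.

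In glycolysis, before and after 3-phosphoglycerate, 4 genes differed in the direction opposite to Phgdh. Pgk1, which makes 3-phosphoglycerate, was 2.49-fold lower in T403A (637 and 256 CPM), and Pgam1, which draws 3-phosphoglycerate further down glycolysis, was 2.07-fold lower (503 and 243 CPM). Eno1 was 2.48-fold lower and Gapdh 1.76-fold lower, while Pkm was not called. Serinc3, of a family named serine incorporators, was 1.75-fold higher (1025 and 1796 CPM). In this list of 15 measured genes of glycolysis and serine use, 4 were thus lower and 1 higher. The shares over all measured genes were 10.8% lower and 13.5% higher. The median log2 ratio of the list was -0.27.

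The other branches of the unfolded protein response were nearly level. Of 31 measured targets of the IRE1 and ATF6 branches 1 was called, Herpud1, a component of protein degradation at the endoplasmic reticulum, with 30.9 CPM for WT and 92.9 CPM for T403A (3.0-fold higher, 2.71 to 3.33). The chaperone genes Hspa5 (755 and 583 CPM) and Calr (931 and 726 CPM) were not called, and the list had a median log2 ratio of -0.10. None of 14 mitochondrial chaperone, protease and stress sensor genes was called (median -0.11), the abundant chaperone gene Hspa9 and protease gene Yme1l1 included. The signs of the medians of the list of eIF2 kinases and phosphatases, the ATF4 target, carrier, one-carbon, IRE1 and ATF6, and mitochondrial lists were positive with library total scaling. The median over all measured genes was 0.20 with that scaling.

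**Figure D4:**
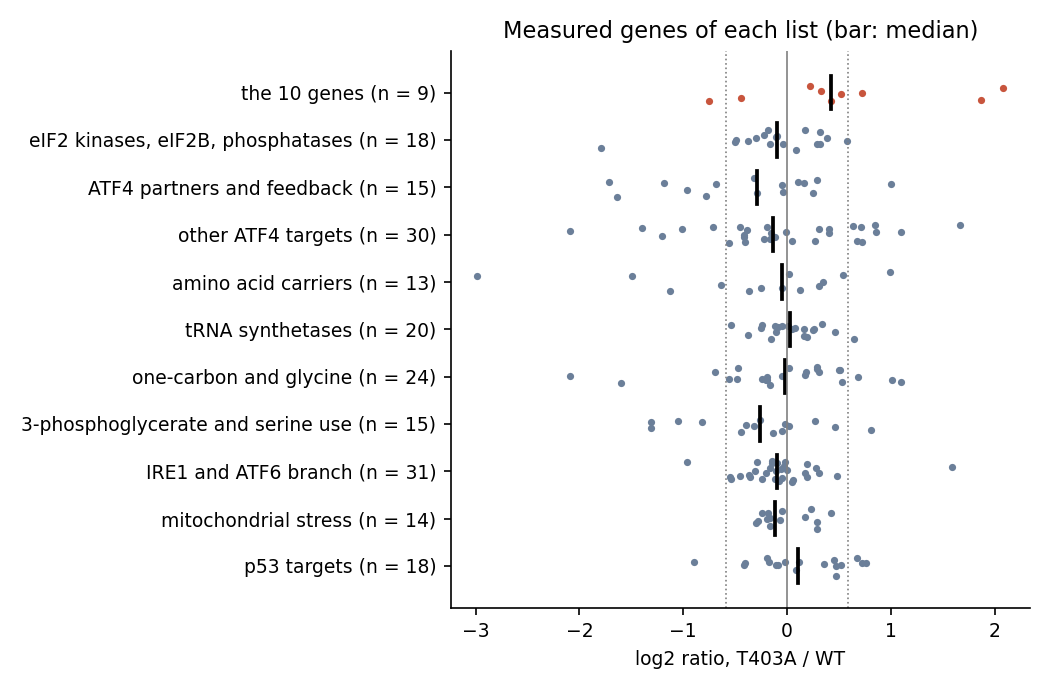
Log2 ratio of T403A to WT for the measured genes of the 10 members and of 10 related lists, 1 point per gene and a black bar at each median. Dotted lines mark 1.5-fold. Of the lists drawn, the members have the highest median (0.42), from a wide spread between Ddit3 and Gdf15. The related lists drawn have medians between -0.29 (ATF4 partners) and 0.10 (p53 targets). The mitotic (median 3.31), interferon-stimulated (median -3.99) and cell type lists are not drawn.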

How the data were processed

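RNA was sequenced from untreated marrow-derived macrophages, 1 library per genotype. The authors deposited read counts by Ensembl gene, as whole numbers and without normalization, beside a gene length in bases, per the file headers. HISAT2, HTSeq 0.9.1, cutadapt 1.15, DESeq 1.30.0 and the build GRCm38 are listed, per the submitters' processing notes. What each tool did, which annotation was used and whether strand was considered is not given in the sources used here.

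Columns were matched to samples by title, with 0 per-sample columns unused. Symbols were found for 21969 of 22060 identifiers. The 10 symbols mapped to 11 rows, and the second row of Ddit3, with a summed count of 0, was left out. Counts were scaled with TMM (edgeR 4.0.16, R 4.3.3). Ratios carry exact 95% Clopper-Pearson intervals (scipy 1.17.1), levels exact Poisson intervals, and log2 ratios a prior count of 0.5 per library. A count of 0 allows up to 3 counts, 0.200 CPM in WT and 0.150 CPM in T403A. RPKM used the deposited lengths, which equalled the union of GENCODE M21 exons for all 10 members. The ratio and interval code was tested on simulated data.

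The members and all lists were chosen with earlier results of these data known, so no count over them is independent support. Named genes are the members, Stat2, and from each list up to 6 called genes with the largest ratios and the 2 with most counts. The mitotic, interferon and cell type lists are given by counts and sums, and some listed genes are counted but not reported here by name. Genes named beyond the rule (Csf1r, Mrc1, Cd3e, Pf4, Eif2ak1, Eif2ak3, Eif2ak4, Ppp1r15a, Jdp2, Clic4, Bbc3 among the ATF4 targets, Aldh18a1, Gpt2, Fgf21, Mthfd2 and Shmt1) were chosen for their role or after their values were seen. Alternatives were 3 other scalings (library totals, upper quartile, DESeq2 1.42.0 size factors), no count minimum, a minimum of 100, a 2-fold call and a prior count of 2.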

Additional observations from a re-analysis of the deposited data

How the results depend on the processing

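The direction of all 9 measured members was kept under each of the alternatives that gave them a value. With library totals in place of TMM, 5 members were called higher and 0 lower, against 3 and 1, and the log2 ratio of Atf4 was -0.26 against -0.45, outside its counting interval. The cause is the scaling factor itself, which moves every log2 ratio by the same amount. With a 2-fold call 2 members were higher (Phgdh and Gdf15) and 0 lower. DESeq2 size factors, both other count minimums and the prior count of 2 left 3 called higher and 1 lower, and upper quartile scaling called 4 higher and 1 lower. The median log2 ratio of the measured members was between 0.37 with no count minimum and 0.61 with library totals. Of the genes on the 12 pathway lists 76 were called, and 59 to 88 under the alternatives. These counts include all 20 mitotic and all 20 interferon-stimulated genes, which were called under every alternative. Over all measured genes the 2-fold call gave 808 higher and 681 lower. Without a minimum Chac1 entered, on 14 counts, and was not called. Depth limits Trib3 and Chac1, whose counting intervals include 1 under all 4 scalings. No paired analysis was possible because each genotype has 1 library.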
